A study of Mus musculus with 26 samples.

Results

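The Hox genes encode homeodomain transcription factors and lie in 4 clusters in the mouse, Hoxa, Hoxb, Hoxc, and Hoxd. They were chosen by name, as every gene called Hox followed by a cluster letter and a number, in the RNA-seq table and among the baited fragments of the promoter capture Hi-C (PCHi-C) lists. This gave 31 of the 15646 genes with RNA-seq values (8 Hoxa, 10 Hoxb, 7 Hoxc, and 6 Hoxd) and 33 of the 19022 baited fragments with a listed contact (9, 11, 7, and 6). The 33 baits include 2 named for noncoding neighbours, Hoxa11as and Hoxb3os. Of the 39 protein-coding Hox genes in RefSeq, 8 were not among the 31. The outermost starts annotated in GENCODE vM21 for Hoxa7, Hoxa9, Hoxa11, Hoxc9, Hoxc13, Hoxd1, Hoxd4, and Hoxd9 lay on baits named for another gene (Hoxa3, Mir196b, Hoxa11as, Mir196a-2, Gm17649, 6720416L17Rik, Hoxd3, and Gm14396, respectively). No RPKM is given for these 8 genes, and 5 of the baits that carry them are treated here as partners of the Hox baits. The baits named Hoxb4 and Hoxd11 adjoin the fragments that hold the outermost annotated starts of these genes and do not carry them, and that of Hoxc5 lies on the Hoxc10 bait. The RefSeq promoter windows counted below for Hoxa9 and Hoxd4 lie off the Mir196b and Hoxd3 baits, and that for Hoxc4 lies off the Hoxc4 bait. The Hoxa10 window at chr6:52234890-52235189 lies off the Hoxa10 bait.

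The profiled cells were in 3 pluripotent states. WT embryonic stem cells (ESCs) were the line E14Tg2a, of 129P2/OlaHsd origin, grown on gelatin with serum and LIF. Nanog-/- ESCs were RCNβH-B(t), a single line derived from E14Tg2a, kept in the same medium with hygromycin added while they were expanded. Epiblast-derived stem cells (EpiSCs) came from 129S2 embryos and were grown on fibronectin in N2B27 with Activin A and bFGF. The sample annotation gives C57BL/6 as the strain of every sample, which differs from the culture protocol. State, strain of origin, and medium therefore cannot be told apart in the comparison of EpiSCs with WT ESCs, and the loss of Nanog and the history of 1 line cannot be told apart in the other. PCHi-C was deposited as 1 combined list per state (from 5 WT ESC, 2 EpiSC, and 5 Nanog-/- ESC lanes). RNA-seq was deposited as 1 median per state (3, 4, and 3 samples). No value below has a replicate error, no test between states could be made from these medians and lists, and intervals are 95% Wilson intervals that cover counting error only.

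Hox genes specify positional identity along the body axis. Within a cluster, genes at the 3′ end (low paralog numbers) are switched on earlier and further forward in the embryo than genes at the 5′ end (high numbers). Before gastrulation the clusters are silenced by Polycomb complexes, which mark them with repressive histone modifications and hold them in compact domains. Hox proteins bind DNA together with cofactors of the Pbx, Meis, and Pknox families, and Cdx factors act upstream of trunk and tail Hox genes.

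RNA levels are in RPKM (reads per kilobase of transcript, scaled to library size), which is a value per transcript length. EpiSC values ran 1.89-fold above WT ESC values over 9077 genes, a log2 shift of 0.91, and Nanog-/- values 1.05-fold, a shift of 0.07 over 9496 genes. Differences are therefore given after dividing by these factors, and levels as deposited unless called scaled. The table column taken as Nanog-/- ESC carries the name BT12 and was assigned by elimination. In it Nanog was at 22.3 RPKM, against 418 in WT ESCs and 361 in EpiSCs. Of 7 ESC markers, 6 were at least 2-fold lower in EpiSCs, such as Esrrb (210, 0.775, and 147 RPKM in the order WT ESC, EpiSC, and Nanog-/- ESC, which is kept below), and 3 were lower in Nanog-/- ESCs, such as Klf4 (93.0, 10.9, and 31.7). Of 5 EpiSC markers, Fgf5 (4.74, 219, and 1.11) and T (3.37, 444, and 1.14) were at least 2-fold higher in EpiSCs and lower in Nanog-/- ESCs. The other EpiSC markers passed in neither direction, with log2 differences in EpiSCs of 0.87 for Pou3f1, 0.07 for Otx2, and -0.55 for Dnmt3b. In each state a lower level may come from fewer expressing cells or from less RNA per cell, which cannot be told apart in bulk samples.

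Hox genes had low RNA levels in all 3 states, and for most of them WT ESCs had the lowest. In WT ESCs the median Hox gene was at 0.0717 RPKM, against 3.93 over all genes. The median was 0.452 RPKM in EpiSCs (0.240 scaled) and 0.463 in Nanog-/- ESCs (0.441 scaled). At least 1 RPKM was reached by 1, 7, and 7 of the 31 genes, against 62.3%, 65.6%, and 63.4% of all genes. After scaling the numbers were 1 in EpiSCs and 7 in Nanog-/- ESCs.

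In Nanog-/- ESCs 30 of the 31 Hox genes were above their WT ESC level, against 46.1% of all genes and 42.8% of the 6348 genes whose WT ESC level lay within the range of the Hox genes. The exception was Hoxc12 (0.260 RPKM in WT ESCs, 0.0957 in Nanog-/- ESCs). Of the 29 Hox genes above 0 in WT ESCs, 28 had a scaled ratio of at least 2, against 24.0% of genes in that range. In EpiSCs 25 of 31 were above the WT ESC level after scaling, against 44.9% of all genes and 43.1% of genes in the range, and 21 of 29 had a ratio of at least 2, against 37.4%. Both comparisons use the same WT ESC column. Of the 6348 genes in the range, 4288 were above 0 in WT ESCs, against 29 of the 31 Hox genes. Genes at 0 in both states cannot count as higher, and the ratio shares are over the 4288. Within the range, genes were not matched to the Hox levels.

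For most genes these were differences of well under 1 RPKM. On the log2(RPKM + 1) scale, 2 Hox genes were at least 2-fold higher in Nanog-/- ESCs and 0 lower (1.5% and 1.51% of all genes), and 0 were higher or lower in EpiSCs (10.4% and 9.66%). Without scaling, 3 were higher in EpiSCs (30.1% of all genes; 5.78% were lower) and 2 in Nanog-/- ESCs (1.69%; 1.35% were lower), and 0 were lower. The median log2 difference of the Hox genes was 0.46 in Nanog-/- ESCs and 0.20 in EpiSCs, against 0.00 for all genes in both. With a pseudocount of 0.1 in place of 1, which gives more weight to low values, 23 Hox genes were higher and 0 lower in Nanog-/- ESCs (4.96% and 4.0% of all genes), and 15 were higher and 3 lower in EpiSCs (16.4% and 15.3%). How many Hox genes passed a 2-fold difference therefore depended on the pseudocount.

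**Figure D1:**
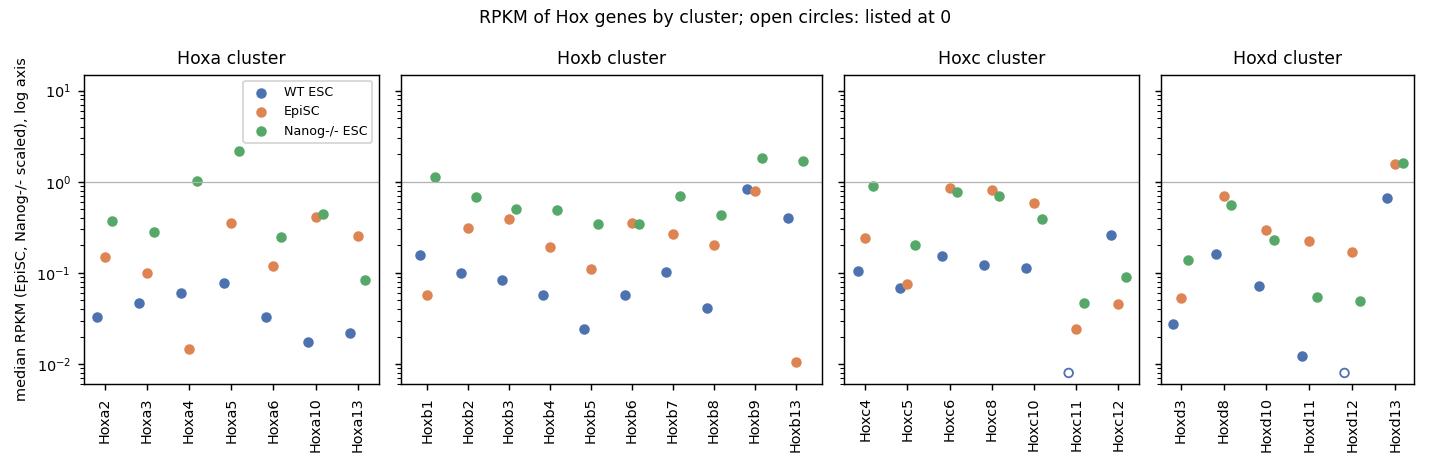
Median RPKM of 30 of the 31 Hox genes in WT ESCs (blue), EpiSCs (orange, scaled), and Nanog-/- ESCs (green, scaled), on a log axis, with genes in paralog order within each cluster, 1 value per state, and open circles for genes listed at 0. In Hoxa and Hoxb the green points sit highest for most genes, such as Hoxa5 at 2.18 scaled RPKM, whereas Hoxd11 and Hoxd12 were highest in EpiSCs.

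In the Hoxa cluster, Hoxa5, which acts in lung and cervical skeletal development, passed the 2-fold difference in Nanog-/- ESCs. It was at 0.0785, 0.666, and 2.29 RPKM (log2 difference, 1.56). Hoxa4 differed in opposite directions in the other states, at 0.0596, 0.0275, and 1.08 RPKM. At the 5′ end, Hoxa13, a gene of digits and urogenital tract, was highest in EpiSCs (0.0219, 0.474, and 0.0870 RPKM). Hoxa10, a gene of the lumbar spine and uterus, was at 0.0173, 0.768, and 0.463 RPKM, and its scaled levels in EpiSCs and Nanog-/- ESCs were alike (0.407 and 0.441). Hoxa2, Hoxa3, and Hoxa6 stayed below 0.4 RPKM in every state. The Hoxa medians were 0.0402, 0.377, and 0.426 RPKM in WT ESCs, EpiSCs, and Nanog-/- ESCs.

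The Hoxa5 promoter window of RefSeq (GRCm38.p6, chr6:52204538-52204837, minus strand, 250 bases before to 50 after the start) is shown because Hoxa5 passed the 2-fold difference, and the Hoxd13 window (chr2:74667975-74668274, plus strand) because Hoxd13 had the highest EpiSC level of the Hox genes. Capitals mark CpG dinucleotides, of which Hoxa5 has 29 and Hoxd13 has 37.
Hoxa5: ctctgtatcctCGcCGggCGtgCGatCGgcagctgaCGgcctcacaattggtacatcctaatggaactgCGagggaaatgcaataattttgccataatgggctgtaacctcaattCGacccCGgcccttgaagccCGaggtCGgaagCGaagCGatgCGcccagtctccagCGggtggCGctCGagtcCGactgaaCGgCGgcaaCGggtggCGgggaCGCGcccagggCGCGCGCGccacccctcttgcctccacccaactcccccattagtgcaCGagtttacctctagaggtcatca
Hoxd13: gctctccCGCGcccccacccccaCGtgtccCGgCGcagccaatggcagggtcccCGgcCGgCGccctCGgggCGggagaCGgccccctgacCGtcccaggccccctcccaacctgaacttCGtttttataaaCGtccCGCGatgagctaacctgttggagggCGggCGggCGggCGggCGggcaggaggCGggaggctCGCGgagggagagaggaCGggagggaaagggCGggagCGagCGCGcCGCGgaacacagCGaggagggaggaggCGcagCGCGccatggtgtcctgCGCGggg
Over the 24 windows listed for 22 Hox genes the median was 14 CpGs (range, 4 to 45), against 7 over all 32851 windows. Most of these windows are of Hoxa and Hoxd genes, with Hoxb1, Hoxb4, and Hoxb8 alone from Hoxb and Hoxc4 alone from Hoxc. A match to TGATNNAT, a Pbx-Hox type motif searched on both strands, was in 4 of the 24 Hox windows (16.7%) and in 8.85% of all windows.

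In the Hoxb cluster all 10 measured genes were higher in Nanog-/- than in WT ESCs and 7 were higher in EpiSCs after scaling, Hoxb1, Hoxb9, and Hoxb13 being lower. The medians were 0.0920, 0.440, and 0.623 RPKM. Hoxb1, which marks a single hindbrain segment, was at 0.156, 0.107, and 1.18 RPKM. Hoxb9 was the highest Hoxb gene in WT ESCs at 0.823 RPKM, with 1.48 in EpiSCs (0.786 scaled) and 1.88 in Nanog-/- ESCs. Hoxb13, the most 5′ gene of the cluster and a tail gene, differed in opposite directions in the other states, at 0.399, 0.0199, and 1.79 RPKM. The other 7 genes, Hoxb2 to Hoxb8, spanned 0.0242 to 0.102 RPKM in WT ESCs, 0.208 to 0.744 in EpiSCs, and 0.359 to 0.739 in Nanog-/- ESCs. Over all 10 genes the ranges overlapped, at 0.0242 to 0.823, 0.0199 to 1.48, and 0.359 to 1.88 RPKM.

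In the Hoxc cluster 6 of 7 genes were higher in EpiSCs and 6 of 7 in Nanog-/- ESCs than in WT ESCs, and the medians were 0.113, 0.452, and 0.408 RPKM. The thoracic genes Hoxc6 (0.155, 1.61, and 0.807 RPKM) and Hoxc8 (0.123, 1.55, and 0.724) and the lumbar gene Hoxc10 (0.113, 1.1, and 0.408) were highest in EpiSCs, also after scaling (0.854, 0.820, and 0.584). Hoxc4, a cervical gene, was highest in Nanog-/- ESCs (0.105, 0.452, and 0.944 RPKM). Hoxc11 was listed at 0 in WT ESCs and was below 0.05 RPKM in the other states. Hoxc12 was lower in both, and Hoxc5 stayed between 0.0677 and 0.212 RPKM.

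In the Hoxd cluster all 6 measured genes were higher in both other states than in WT ESCs. Hoxd13, which patterns the digits and the genital tubercle, was at 0.669, 2.93, and 1.70 RPKM, and at 1.55 and 1.62 after scaling. Hoxd11 (0.0123, 0.425, and 0.0577 RPKM) and Hoxd12 (listed at 0, then 0.319 and 0.0519) were highest in EpiSCs. Hoxd8 was at 0.162, 1.32, and 0.586 RPKM and Hoxd10 at 0.0717, 0.562, and 0.243, also highest in EpiSCs, whereas Hoxd3 was highest in Nanog-/- ESCs (0.0276, 0.101, and 0.146). The cluster medians were 0.0496, 0.494, and 0.194 RPKM.

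Markers of other cell types also differed between the states. A primitive endoderm list, chosen after the values were seen (Gata4, Gata6, Sox17, Sox7, Foxa2, Pdgfra, Dab2, and Lama1), summed to 16.6, 138, and 128 RPKM. Of its 8 genes, 7 were at least 2-fold higher in Nanog-/- ESCs, and 5 were higher and 1 lower in EpiSCs, and none was at 0. Foxa2 alone made up 90.5 RPKM of the EpiSC sum. Gata4 (1.29, 0.976, and 18.5 RPKM), Sox7 (0.127, 0.358, and 9.18), and Lama1 (11.2, 3.38, and 49.0) did not pass as higher in EpiSCs. The primitive streak gene T was at 444 RPKM in EpiSCs. The part of such cells in the Hox levels was not tested.

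Over all genes, 10.4% were at least 2-fold higher and 9.66% lower in EpiSCs, or 30.1% and 5.78% without scaling. In Nanog-/- ESCs the shares were 1.5% and 1.51%. Among the Hox cofactors, 3 of 7 measured genes were at least 2-fold higher in EpiSCs and 0 of 7 in Nanog-/- ESCs. These were Meis3 (1.86, 35.3, and 3.54 RPKM), Pknox2 (0.632, 21.6, and 1.97), and Pbx2 (29.0, 135, and 28.9). The upstream factor Cdx1 was listed at 0 in EpiSCs, against 2.44 RPKM in WT ESCs and 5.60 in Nanog-/- ESCs, and Cdx2 passed no 2-fold difference. Of 10 measured subunits of Polycomb repressive complex 2, 4 were at least 2-fold lower in EpiSCs, including Eed (211 to 121 RPKM), Mtf2 (156 to 87.0), and Jarid2 (124 to 78.1), and 0 were higher. These calls rest on the scaling, since without it 0 were lower and 2 higher. Ezh2 was not among the measured subunits. Of 16 genes of Polycomb repressive complex 1, 4 were higher in EpiSCs, among them Bmi1 (1.58 to 15.5 RPKM), Phc2 (7.60 to 52.0), and Ring1 (4.39 to 25.5), and 2 were lower, against 8 higher and 0 lower without scaling. Bmi1 was the single one higher in Nanog-/- ESCs, at 4.90 RPKM. Of 6 trithorax group genes, 2 were lower in EpiSCs, Dpy30 (311 to 214) and Ash2l (142 to 101), against 0 lower and 2 higher without scaling. In Nanog-/- ESCs 0 of the 10 Polycomb repressive complex 2 genes and 0 of the 6 trithorax group genes passed. No row of the RNA-seq table matched the noncoding neighbours Hotair, Hotairm1, Hottip, and Halr1, by these names or by their older names in RefSeq (Gm16258, Gm15051, Gm15053, and Gm15055).

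PCHi-C joins DNA that was close in the nucleus and enriches for HindIII fragments that carry promoters, the baits. The lists hold the pairs of fragments that reached a CHiCAGO score of at least 5, which weighs the read pairs joining them against those expected at that distance. A pair that is not listed had a lower score, not necessarily no reads. The library depth behind the lists is not known from them, and the listed contacts carried 2177284, 1651286, and 1438555 read pairs in WT ESCs, EpiSCs, and Nanog-/- ESCs.

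Hox baits took part in more contacts than most baits in every state. They had 739 contacts of 100492 in WT ESCs (0.735%; 0.684 to 0.790), 586 of 87369 in EpiSCs (0.671%; 0.619 to 0.727), and 581 of 74931 in Nanog-/- ESCs (0.775%; 0.715 to 0.841), while Hox baits made up 0.173% of all baits. The median Hox bait had 22, 16, and 16 contacts in the 3 states, against 3, 3, and 2 for all baits. At least 25 contacts were listed for 16, 11, and 10 of the 33 Hox baits, against 4.33%, 2.93%, and 2.41% of all baits. The baits with the most contacts were Hoxc5 (68, 64, and 71), Hoxc11 (67, 47, and 58), and Hoxc8 (65, 42, and 58). Those with the fewest were Hoxd baits, such as Hoxd11 (6, 2, and 7) and Hoxd10 (5, 9, and 4).

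Contacts were counted as inside when both fragments lay between the first and the last Hox bait of a cluster. Bait names set these spans, so Hoxc13 and Hoxd1, whose starts lie on baits with other names, fell outside them. The Hoxa span was on chromosome 6, and the others were chr11:96188425-96369547 for Hoxb, chr15:102933875-103021040 for Hoxc, and chr2:74663938-74714061 for Hoxd (GRCm38). There were 307, 224, and 287 inside contacts, and 431, 362, and 293 contacts with fragments outside on the same chromosome. None joined different Hox clusters in any list. A single Hox contact reached another chromosome, between the Hoxb6 bait and chr3:9087804-9088842, an intergenic fragment whose nearest protein-coding gene was Tpd52. It rested on 3 read pairs in WT ESCs (score, 11.88) and 3 in Nanog-/- ESCs (13.05), and such contacts made up 0.782%, 0.444%, and 0.462% of the 3 lists.

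**Figure D2:**
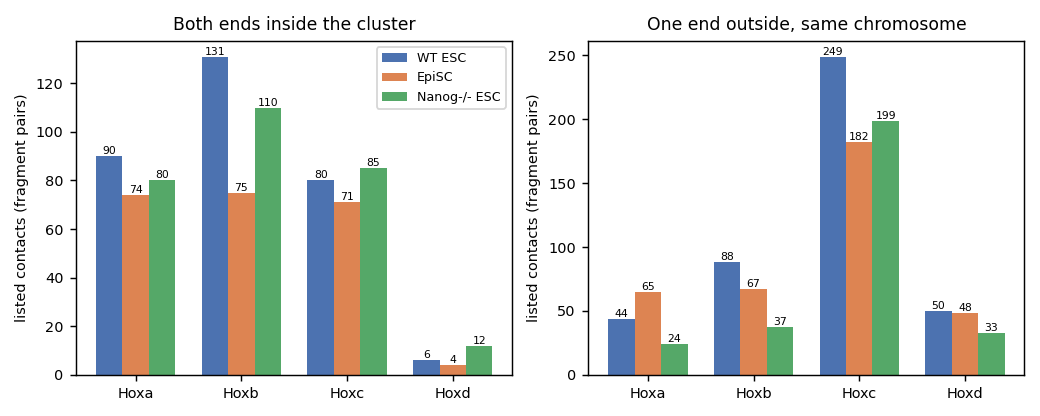
Number of listed contacts of Hox baits in each cluster, with both ends inside the cluster (left) or 1 end outside it on the same chromosome (right), in WT ESCs, EpiSCs, and Nanog-/- ESCs. Hoxb had 131, 75, and 110 inside contacts and Hoxc had 249, 182, and 199 outside contacts, whereas Hoxa alone had its most outside contacts in EpiSCs (65).

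The EpiSC list held fewer contacts inside Hoxb than the other lists (75, against 131 in WT ESCs and 110 in Nanog-/- ESCs). Inside Hoxa the numbers were 90, 74, and 80 in WT ESCs, EpiSCs, and Nanog-/- ESCs, and inside Hoxc 80, 71, and 85. Hoxd had 6, 4, and 12. The inside share of all Hox contacts was 41.5% in WT ESCs (38.0 to 45.1), 38.2% in EpiSCs (34.4 to 42.2), and 49.4% in Nanog-/- ESCs (45.3 to 53.5).

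Pooled over the clusters, pairs of Hox baits in 1 cluster were listed more often than other bait pairs 20 to 100 kb apart. Of the 127 possible pairs, 94 were listed in WT ESCs (74.0%; 65.8 to 80.9), 69 in EpiSCs (54.3%; 45.7 to 62.7), and 92 in Nanog-/- ESCs (72.4%; 64.1 to 79.5). Between 50 and 100 kb, 90.0%, 72.5%, and 77.5% of the 40 Hox pairs were listed, against 22.7%, 16.6%, and 19.2% of the 17832 other bait pairs. Between 20 and 50 kb, the shares were 76.6%, 53.2%, and 80.9% for Hox pairs and 29.1%, 21.0%, and 29.3% for other pairs. Below 20 kb the Hox shares (48.5%, 39.4%, and 57.6%) had intervals that included the shares of other pairs (37.8%, 33.7%, and 41.0%). No list holds a pair of adjoining fragments, and 5 of these 33 Hox pairs adjoin (Hoxa5 with Hoxa6, Hoxa6 with Hoxa3, Hoxb8 with Hoxb7, Hoxb7 with Hoxb6, and Hoxd8 with Hoxd3). Without adjoining pairs, the Hox shares below 20 kb were 57.1% (39.1 to 73.5), 46.4% (29.5 to 64.2), and 67.9% (49.3 to 82.1), against 47.5%, 42.3%, and 51.4% of other pairs. Above 100 kb there were 7 Hox pairs, of which 6, 2, and 4 were listed (18.1%, 11.8%, and 11.8% of other pairs), with an EpiSC interval of 8.22 to 64.1%.

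**Figure D3:**
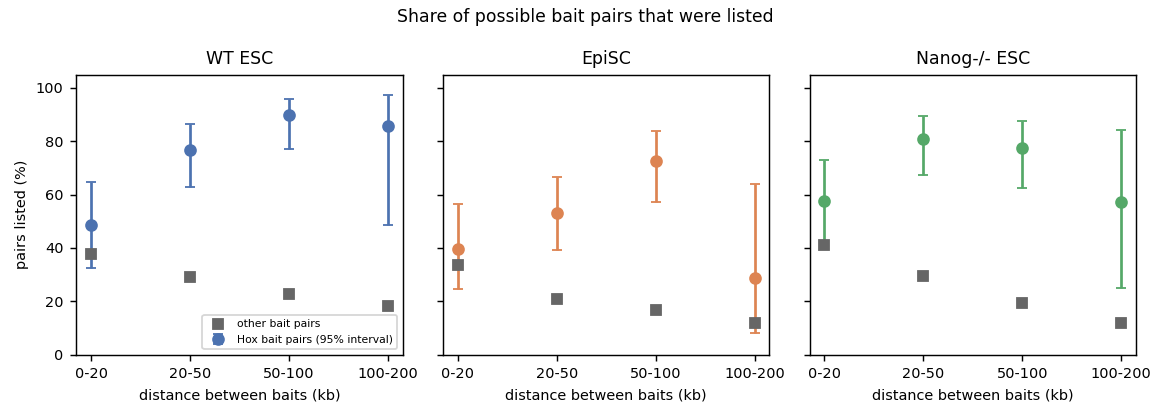
Share of possible bait pairs that were listed, by the distance between the baits, for Hox pairs of 1 cluster (circles, with 95% Wilson intervals) and all other bait pairs (grey squares) in the 3 states. Other pairs were listed less often with distance, whereas the Hox share was 90.0%, 72.5%, and 77.5% at 50 to 100 kb. The shares below 20 kb include pairs of adjoining fragments, which no list holds, and without them the Hox shares there were 57.1%, 46.4%, and 67.9%.

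The clusters differed in how fully their baits were joined. In Hoxc 21, 21, and 20 of 21 pairs were listed in WT ESCs, EpiSCs, and Nanog-/- ESCs, and 20 were in all 3 lists. In Hoxb 47, 30, and 45 of 55 pairs were listed and 28 were in all 3, and in Hoxa 21, 15, and 22 of 36 and 12 in all 3. In Hoxd 5, 3, and 5 of 15 pairs were listed and 2 were in all 3, Hoxd12 with Hoxd11 and Hoxd12 with Hoxd8. The Hoxd shares were 33.3% (15.2 to 58.3), 20.0% (7.05 to 45.2), and 33.3% (15.2 to 58.3). These intervals include the shares of other pairs between 20 and 50 kb (29.1%, 21.0%, and 29.3%). Hoxd baits lay at most 45.0 kb apart, so Hoxd had no pair in the 50 to 100 kb range. Of the 127 pairs, 24 were in none of the lists. These include the 5 adjoining pairs, of a kind that no list holds, and pairs that do not adjoin, such as Hoxa4 with Hoxa5.

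Some of the highest-scoring pairs of Hox baits lay 23.7 to 83.4 kb apart. Hoxa2 and the Hoxa11as bait, which carries the start of Hoxa11, lay 83.4 kb apart and were joined by 58 read pairs in WT ESCs (score, 23.39), 35 in EpiSCs (13.93), and 34 in Nanog-/- ESCs (26.52). Hoxb5 and Hoxb2, at 48.2 kb, were joined by 55, 32, and 30 read pairs (25.91, 15.77, and 25.83). Hoxc8 and Hoxc5, at 23.7 kb, were joined by 107, 100, and 66 read pairs (18.70, 21.29, and 27.72), the highest-scoring Hox pair of both the EpiSC and the Nanog-/- lists. The pair Hoxb7 and Hoxb4 was listed in WT ESCs (43 read pairs; 17.95) and Nanog-/- ESCs (23; 14.22) and not in EpiSCs.

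Inside contacts held by both lists tended to have lower scores in EpiSCs than in WT ESCs. Of 195 such contacts, 28.2% (22.4 to 34.9) had the higher score in EpiSCs, against 46.4% of all pairs under 200 kb that both lists held. The share was lowest in Hoxb (9 of 67 contacts, 13.4%; 7.23 to 23.6) and was 31.0% in Hoxa and 40.3% in Hoxc. In Nanog-/- ESCs 60.3% of 252 inside contacts had the higher score (54.2 to 66.2), against 57.3% of all pairs under 200 kb, with 76.3% in Hoxc (65.6 to 84.5) and 53.0% in Hoxb. Outside contacts held by both lists had the higher score in EpiSCs in 47.0% of 215 cases (all pairs, 47.8%) and in Nanog-/- ESCs in 43.9% of 212 (37.4 to 50.6; all pairs, 53.1%). Scores rise with the depth of a library, so these shares are read against those of all pairs and not against an even split.

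**Figure D4:**
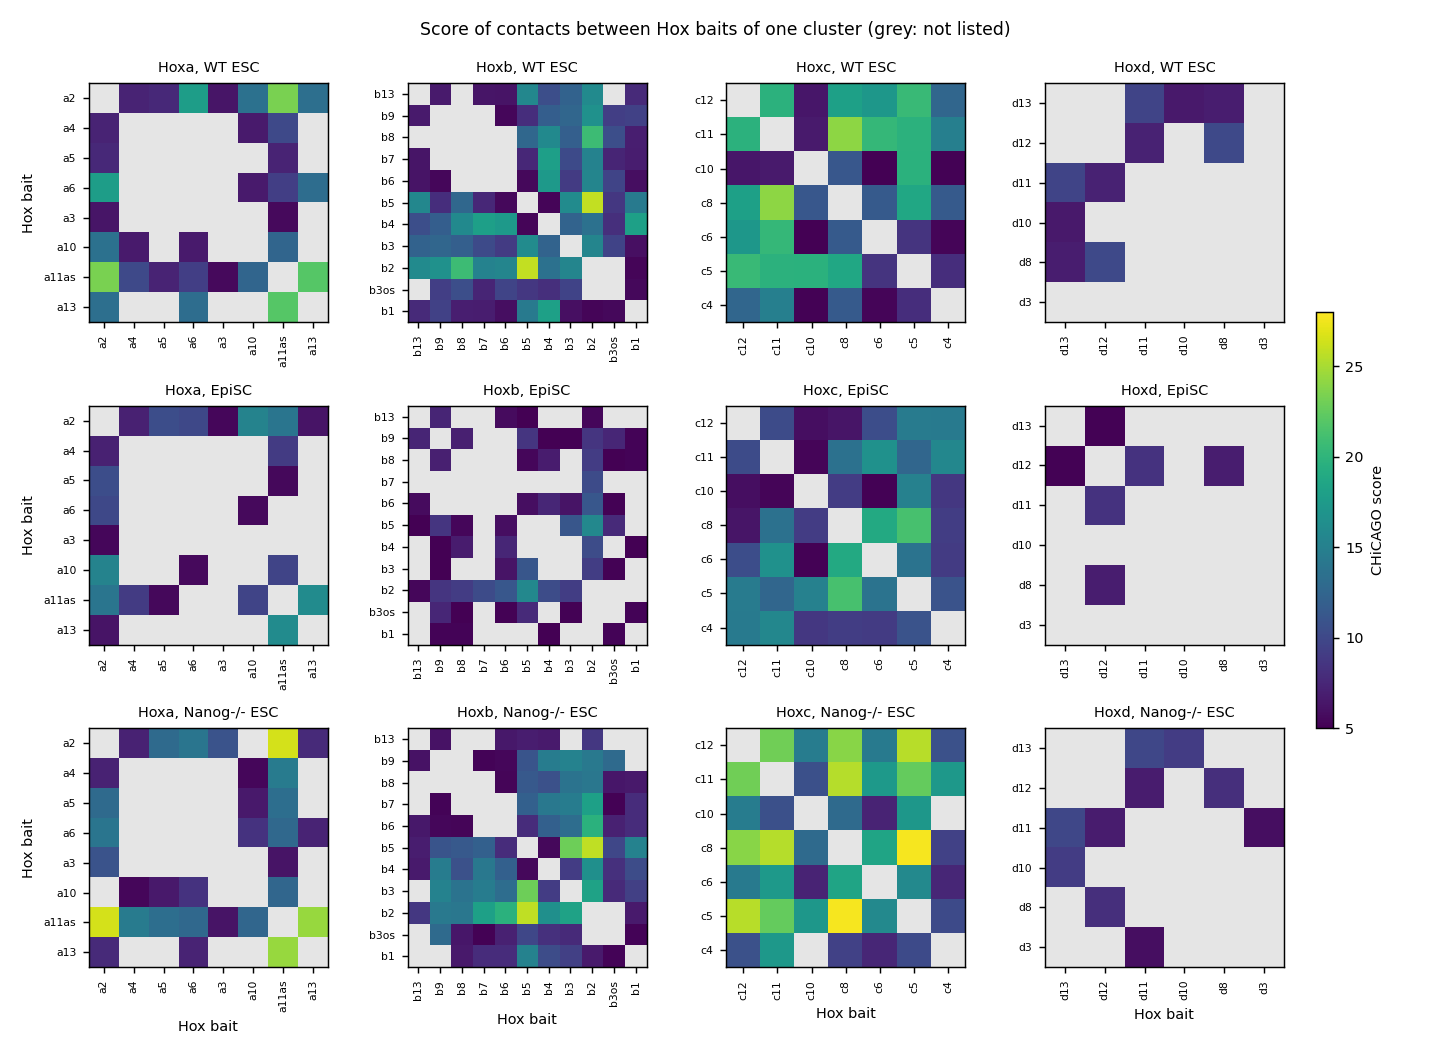
CHiCAGO scores of contacts between the Hox baits of 1 cluster (8 of the 9 baits in Hoxa), with baits in genome order along both axes, for each cluster (columns) and state (rows), from 5 (dark) to 28 (yellow) and grey where a pair was not listed. The diagonal is grey by construction, and pairs of adjoining fragments are in no list. Off the diagonal Hoxc was filled but for 1 pair in Nanog-/- ESCs, Hoxb had lower scores and more grey in EpiSCs, and the middle of Hoxa and most of Hoxd were grey throughout.

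Baits named for noncoding genes within Hoxa and Hoxc were contacted by most Hox baits of their cluster. Those within Hoxb and Hoxd, except 0610040B09Rik in Hoxb, were contacted by fewer in at least 1 list. Baits with microRNA names lie in the clusters, Mir196b in Hoxa, Mir196a-1 in Hoxb, and Mir196a-2 in Hoxc, and Mir10b lies beside the Hoxd span. MicroRNAs of the miR-196 and miR-10 families are encoded among Hox genes, and miR-196 is known to repress Hox transcripts. Their mature 5p sequences in RefSeq are shown because they carry the names of contacted baits, with the seed (bases 2 to 8) in capitals.
mmu-miR-196a-5p: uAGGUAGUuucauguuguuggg
mmu-miR-196b-5p: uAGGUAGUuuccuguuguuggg
mmu-miR-10b-5p: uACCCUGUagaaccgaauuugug
They lie at chr11:96265187-96265208 and chr15:102973365-102973386 (miR-196a, plus strand), chr6:52230129-52230150 (miR-196b, minus strand), and chr2:74726074-74726096 (miR-10b, plus strand) of GRCm38.p6. The miR-196a and miR-196b sequences share the seed AGGUAGU. The Mir196a-2 bait was contacted by all 7 Hoxc baits in every list (highest scores, 18.65, 15.74, and 33.69). The Mir196b bait, which also carries the outermost annotated start of Hoxa9, was contacted by 8, 7, and 8 of the 9 Hoxa baits, and Mir196a-1 by 6, 4, and 4 of the 11 Hoxb baits. The Mir10b bait was contacted by 2 Hoxd baits in each list, with scores up to 9.65.

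Gm16258, which RefSeq names Hotair, was contacted by 6, 7, and 7 of the 7 Hoxc baits. Gm15050 was contacted by 8, 9, and 8 of the 9 Hoxa baits with scores up to 38.84, 21.84, and 38.66. The bait 2700086A05Rik (RefSeq name, Hoxaas3) was contacted by 7 Hoxa baits in each list. In Hoxb, 0610040B09Rik (Hoxb5os) was contacted by 8, 6, and 10 of the 11 baits, Gm11536 by 9, 4, and 9, and Gm53 by 1 bait in WT ESCs alone. Gm14396, whose bait carries the start of Hoxd9, was contacted by 1, 1, and 5 of the 6 Hoxd baits.

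Outside the clusters, Hoxa baits had more contacts in EpiSCs than in the other states. In EpiSCs, 56 of the 65 outside contacts lay at lower coordinates, on the 3′ side of the cluster, against 20 of 44 in WT ESCs and 10 of 24 in Nanog-/- ESCs. A block of 11 fragments at chr6:51167210-51213428, about 1 Mb from the cluster and without a protein-coding gene, had 32 contacts with 8 of the 9 Hoxa baits in EpiSCs, 5 contacts with 3 baits in WT ESCs, and 1 contact with 1 bait in Nanog-/- ESCs. The nearest protein-coding gene to its fragments was Nfe2l3.

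The 32 EpiSC contacts reached 9 of the 11 fragments and rested on few reads each, 4 to 8 read pairs (median, 6), with scores of 5.07 to 13.29 (median, 7.99). The Hoxa3 bait, which also carries the start of Hoxa7, contacted 7 fragments with 39 read pairs, Hoxa6 contacted 6 with 39, and the Hoxa11as bait contacted 5 with 35. Hoxa2 and Hoxa4 contacted 4 fragments each (25 and 27 read pairs), Hoxa10 contacted 2 (8), and Hoxa5 contacted 1 (4). Hoxa13, at the 5′ end, had no listed contact there in any state. The highest score was for Hoxa4 with chr6:51173834-51180766 (8 read pairs; 13.29), a pair not listed in WT or Nanog-/- ESCs.

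Within the block, 3 fragments were contacted by 5 or 6 Hoxa baits in EpiSCs. The longest, chr6:51171572-51173833, was contacted by 6 in EpiSCs, 1 in WT ESCs, and none in Nanog-/- ESCs and is not printed. The others are short enough to print whole, chr6:51170011-51170249, contacted by 5 Hoxa baits in EpiSCs and none in the other lists, and chr6:51170250-51170425, contacted by 6 and none. A further fragment, chr6:51867765-51867973, lies in an intron of Skap2, and was contacted by 6 Hoxa baits in EpiSCs, 1 in WT ESCs, and 1 in Nanog-/- ESCs. Sequences are the plus strand of GRCm38, with capitals for the HindIII ends of the fragment.
chr6:51170011-51170249: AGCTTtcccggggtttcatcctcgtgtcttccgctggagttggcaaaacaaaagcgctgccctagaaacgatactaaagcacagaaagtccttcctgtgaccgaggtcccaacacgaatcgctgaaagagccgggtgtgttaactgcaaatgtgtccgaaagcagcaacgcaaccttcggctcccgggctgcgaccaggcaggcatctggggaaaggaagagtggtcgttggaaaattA
chr6:51170250-51170425: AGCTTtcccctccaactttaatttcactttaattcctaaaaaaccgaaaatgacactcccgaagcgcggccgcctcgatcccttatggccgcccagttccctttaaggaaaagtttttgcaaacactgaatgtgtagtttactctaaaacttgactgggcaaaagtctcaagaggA
chr6:51867765-51867973: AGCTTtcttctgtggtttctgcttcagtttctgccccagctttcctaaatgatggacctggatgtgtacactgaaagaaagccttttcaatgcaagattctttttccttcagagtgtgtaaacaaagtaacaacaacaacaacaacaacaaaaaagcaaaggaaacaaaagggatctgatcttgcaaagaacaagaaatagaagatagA
The first holds 15 CpGs in 239 bases and the second 7 in 176, whereas the Skap2 fragment holds 0 in 209. Skap2 encodes an adaptor protein of blood cells and lies on the 3′ side of the cluster. Its region at chr6:51852734-51881642 had 4, 16, and 4 contacts with 3, 7, and 2 Hoxa baits in WT ESCs, EpiSCs, and Nanog-/- ESCs. Skap2 was at 65.6, 50.6, and 88.3 RPKM.

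On the other side of the Hoxa cluster, contacts with Evx1 were fewest in EpiSCs. Evx1 encodes a homeodomain protein of the primitive streak, and its bait (chr6:52306633-52315589) was contacted by 7, 2, and 9 Hoxa baits. With Hoxa13, at 47.9 kb, it shared 34, 23, and 29 read pairs (scores, 17.55, 14.62, and 28.34), and with Hoxa2 25, 12, and 19 (12.14, 5.78, and 16.70). With Hoxa11as it shared 68 read pairs in WT ESCs (17.50) and 51 in Nanog-/- ESCs (26.55) and was not listed in EpiSCs. Evx1 was at 0.419, 0.0318, and 0.0845 RPKM, below 1 RPKM in all 3 states. Its paralog Evx2, beside Hoxd13, was listed at 0 in WT ESCs and was contacted in Nanog-/- ESCs alone, by Hoxd10 and Hoxd11 with 16 read pairs each.

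The outside partner was itself a bait in 57 of 431 outside contacts in WT ESCs (13.2%; 10.3 to 16.8), 41 of 362 in EpiSCs (11.3%; 8.46 to 15.0), and 42 of 293 in Nanog-/- ESCs (14.3%; 10.8 to 18.8). Over all baits and distances, 23.1%, 18.4%, and 22.0% of the pairs in the lists joined 2 baits. Developmental regulators, taken by bait name, had a larger share of these partners than of other baited ends, and Evx1 and Evx2 made up all of them. They were 7 of 57 in WT ESCs (12.3%; 6.08 to 23.2), 2 of 41 in EpiSCs (4.88%; 1.35 to 16.1), and 11 of 42 in Nanog-/- ESCs (26.2%; 15.3 to 41.1), against 1.45%, 1.29%, and 1.53% of the ends of other contacts between baits. Evx1 and Evx2 are the nearest homeobox genes to their clusters, and contacts of several Hox baits with 1 bait are not independent. In EpiSCs both contacts were with Evx1, and the interval starts at 1.35%, close to the 1.29% of other ends. Baits named Vax2os1 (at Vax2) and uce (at Dlx1) were contacted too, and their names did not match, so they were not counted as regulators.

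**Figure D5:**
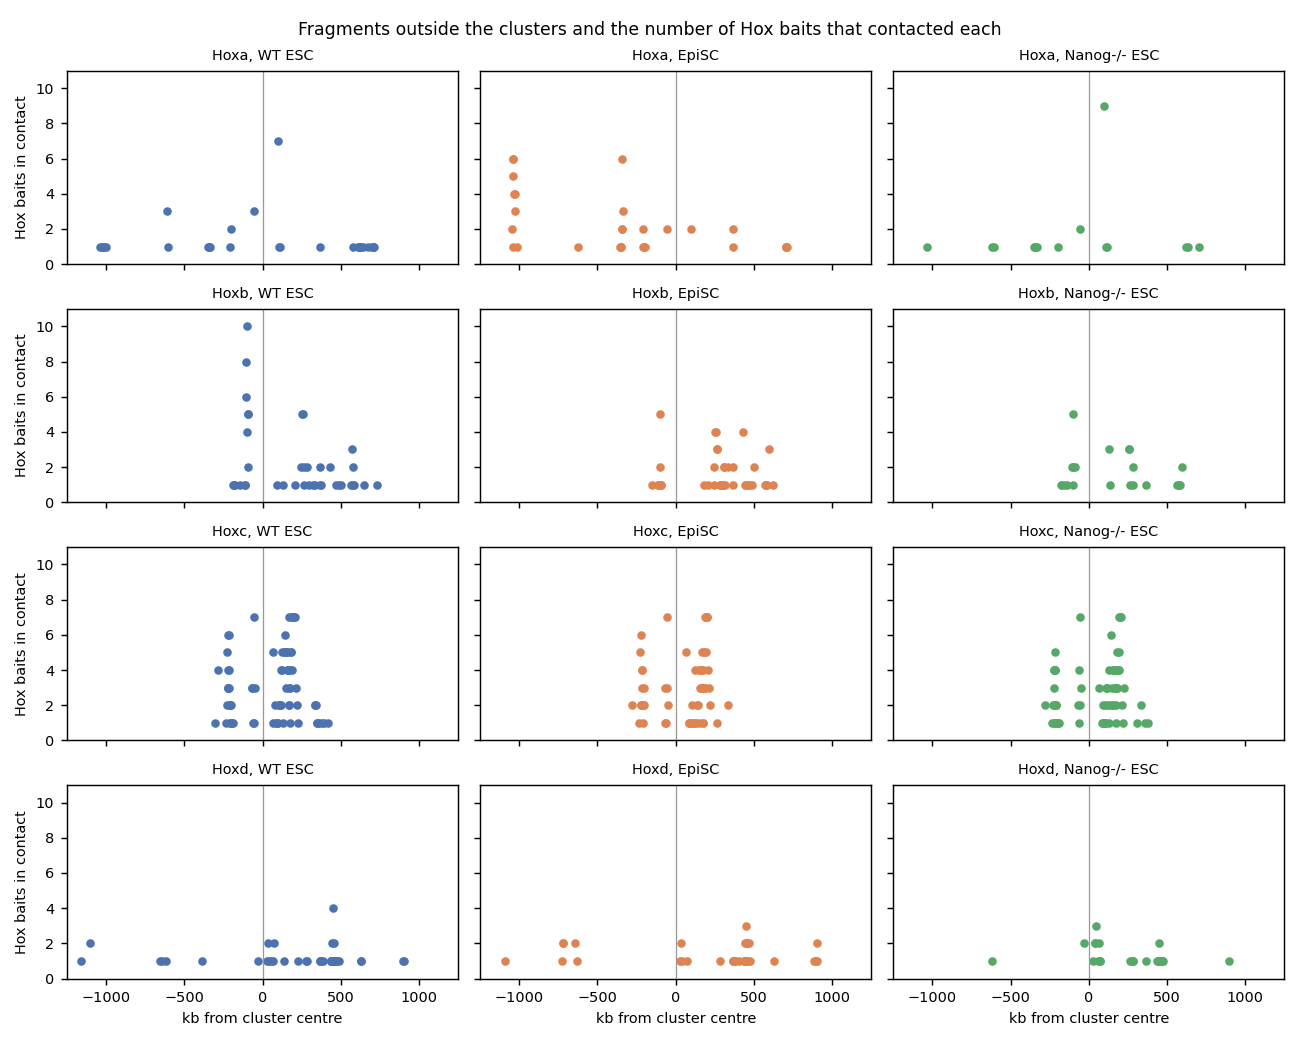
Fragments outside each Hox cluster within 1200 kb, by distance from the centre of the cluster and by the number of Hox baits that contacted each, for each cluster (rows) and state (columns). Hoxa baits converged on a block about 1 Mb away in EpiSCs, on the Evx1 bait in WT and Nanog-/- ESCs (7 and 9 baits), and Hoxc baits on fragments about 200 kb away in every state (7 baits).

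Contacts above 800 kb were most frequent in EpiSCs. They were 14 of 738 same-chromosome Hox contacts in WT ESCs (1.90%; 1.13 to 3.16), 40 of 586 in EpiSCs (6.83%; 5.05 to 9.16), and 2 of 580 in Nanog-/- ESCs (0.345%; 0.0946 to 1.25), against 1.30%, 1.78%, and 0.370% of all same-chromosome contacts. Hoxa baits had 8, 32, and 1 of them and Hoxd baits 6, 8, and 1, and Hoxb and Hoxc baits had none. The 32 Hoxa contacts in EpiSCs were all with the 1 block at chr6:51167210-51213428. They join neighbouring baits to neighbouring fragments and are not independent, which the EpiSC interval does not cover. The higher EpiSC share therefore rests mostly on 1 locus. Almost none of the contacts above 800 kb had 10 read pairs. Among contacts with at least 10 read pairs the shares were 0%, 0.518%, and 0%, against 0.125%, 0.209%, and 0.0311% of all contacts so limited. With a score of at least 7 the shares were 0.460%, 8.07%, and 0%, against 1.25%, 1.77%, and 0.316% of all contacts.

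The longest contact in WT ESCs joined the Hoxa11as bait to the Vax2os1 bait at Vax2, a homeobox gene of the eye, over 31466 kb with 3 read pairs (5.86). In EpiSCs the longest joined Hoxd10 to a bait named uce at an exon of Dlx1, a homeobox gene of the forebrain and branchial arches (chr2:71533728-71536366), over 3156 kb with 7 read pairs (15.88). The same fragment was joined to Hoxd12 in WT ESCs with 5 read pairs (8.4). In Nanog-/- ESCs the longest was the 1071 kb contact of Hoxa11as with chr6:51173834-51180766, with 6 read pairs (5.54), which EpiSCs also held with 6 (6.11).

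Hoxb baits contacted 2 main regions. The first, chr11:96163821-96188424, adjoins the 5′ end of the cluster next to Hoxb13 and reaches Ttll6. It had 42 contacts with all 11 Hoxb baits in WT ESCs, 13 with 6 baits in EpiSCs, and 12 with 6 baits in Nanog-/- ESCs. Its fragment chr11:96178026-96181670 was contacted by 10, 5, and 5 baits, with the highest score for Hoxb2 in WT ESCs (25 read pairs; 18.06). The second, chr11:96522802-96613724, lies within Skap1, an adaptor gene of T cells on the Hoxb1 side. It had 20, 28, and 10 contacts with 7, 8, and 6 baits. Hoxb1 with chr11:96529732-96536732 in a Skap1 intron was joined by 17 read pairs in WT ESCs (8.85) and 19 in EpiSCs (12.83) and was not listed in Nanog-/- ESCs. Further along, chr11:96708419-96780455 (Skap1 and Snx11) had 5, 12, and 0 contacts. Skap1 itself was at 0.121, 0.0129, and 0.259 RPKM.

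Hoxc baits had the most outside contacts of the 4 clusters and the highest scores. A region at chr15:103037829-103205385, on the Hoxc4 side and including Smug1 and Cbx5, had 161, 121, and 134 contacts in WT ESCs, EpiSCs, and Nanog-/- ESCs, with all 7 Hoxc baits in each. Beside Smug1, 3 neighbouring intergenic fragments were contacted by all 7 baits in all lists (chr15:103170893-103173407, chr15:103173808-103175875, and chr15:103175876-103179485). For Hoxc5 the first of these had 42, 74, and 32 read pairs (scores, 34.9, 80.54, and 36.7), which was the highest-scoring Hox contact of the EpiSC list. For Hoxc8 the last of these had 56, 41, and 34 read pairs (59.28, 48.07, and 50.03), the highest-scoring Hox contact of the WT ESC and Nanog-/- lists. Smug1, a uracil-DNA glycosylase of base excision repair, was itself contacted by 5, 3, and 5 Hoxc baits and was at 10.6, 25.2, and 9.79 RPKM.

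A second Hoxc region, chr15:102740600-102790794, lies beyond Hoxc12 and Hoxc13 and holds no protein-coding gene. It had 53, 39, and 39 contacts with 6, 7, and 5 baits and scores up to 23.69, 20.76, and 17.53. The bait Gm17649 at the start of Hoxc13 was contacted by all 7 Hoxc baits in each list. A short fragment on the Smug1 side, chr15:103151523-103151722 (plus strand, HindIII ends in capitals), is shown because its contacts were alike in number across the states, with 4, 4, and 3 Hoxc baits and 52, 51, and 29 read pairs.
chr15:103151523-103151722: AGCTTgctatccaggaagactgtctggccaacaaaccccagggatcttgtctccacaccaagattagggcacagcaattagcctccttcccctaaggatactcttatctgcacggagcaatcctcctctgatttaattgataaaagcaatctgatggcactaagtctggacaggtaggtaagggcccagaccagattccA
It holds 1 CpG in 200 bases.

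Hoxd baits had few contacts inside the span as defined here, which ends at the Hoxd3 bait. Next to that bait, chr2:74714062-74764309, with Hoxd1, Hoxd4, and part of Hoxd3, had 8, 5, and 13 contacts that were counted as outside. Of all outside contacts, the Hoxd3 bait had most (27, 25, and 20). Farther away, the main target was a region without a protein-coding gene on the Hoxd3 side beyond Mtx2, chr2:75124336-75177209, with 21, 20, and 11 contacts. Its bait named uce (chr2:75136077-75140464) was joined to Hoxd3 over 427 kb by 16, 18, and 10 read pairs (25.62, 31.23, and 18.81), the highest Hoxd score in each list. Hoxd3 also reached chr2:75584898-75589586 over 876 kb with 7, 13, and 6 read pairs (6.32, 19.39, and 6.62). On the Hoxd13 side, chr2:73960480-73967531 near Atp5g3 had 5 contacts in EpiSCs, with Hoxd12 and Hoxd13, and none in the other lists. A fragment of it is shown (plus strand, HindIII ends in capitals), since it had the highest scores there, 13.3 for Hoxd12 (11 read pairs) and 10.43 for Hoxd13 (8).
chr2:73966016-73966223: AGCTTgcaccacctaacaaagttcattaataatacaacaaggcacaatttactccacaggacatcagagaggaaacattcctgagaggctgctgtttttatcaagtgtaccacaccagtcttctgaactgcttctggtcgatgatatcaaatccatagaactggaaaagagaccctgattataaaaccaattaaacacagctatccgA

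The other named promoters that Hox baits contacted outside the clusters in all 3 lists were few. Gm15051, which RefSeq names Hotairm1, was contacted by 3, 2, and 2 Hoxa baits. Gpr84, an immune receptor gene, was contacted by 2 Hoxc baits in each list, and the Skap2 bait by 2, 1, and 1 Hoxa baits. Beside Hoxd, 6720416L17Rik (RefSeq name, Haglr), whose bait carries the start of Hoxd1, was contacted by 2, 1, and 1 baits and 1700109F18Rik (Hoxd3os1) by 1 in each.

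Pooled over the clusters, Hox contacts were held in common between the lists more often than contacts in general. Outside contacts of Hoxa and Hoxb baits mostly were not, as given below. Of the WT ESC Hox contacts, 55.5% were in the EpiSC list (51.9 to 59.0), against 39.6% of all WT ESC pairs, and 62.9% were in the Nanog-/- list (59.4 to 66.3), against 41.8%. Of the EpiSC Hox contacts, 70.0% were in the WT ESC list (66.1 to 73.5), against 45.5%, and 60.8% in the Nanog-/- list, against 36.4%. Of the Nanog-/- Hox contacts, 80.0% were in the WT ESC list (76.6 to 83.1), against 56.0%, and 61.3% in the EpiSC list, against 42.4%. Of 1005 different Hox contacts, 330 (32.8%) were in all 3 lists, against 14.4% of 174253 pairs, and 194, 150, and 90 were in the WT ESC, EpiSC, and Nanog-/- list alone. Contacts in several lists tend to have higher scores, and Hox contacts were not matched to other contacts for score or distance.

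The clusters differed here too. In all 3 lists were 47.3% of 393 Hoxc contacts, 26.0% of 215 Hoxa, 23.6% of 296 Hoxb, and 17.8% of 101 Hoxd contacts. Contacts inside the clusters were in all 3 lists in 48.5% of 365 cases and outside contacts in 23.9% of 639. Among the least shared were the outside contacts of Hoxa baits in EpiSCs. Of these, 13 of 65 were in the WT ESC list (20.0%; 12.1 to 31.3) and 7 of 65 in the Nanog-/- list (10.8%; 5.32 to 20.6). The shares of all EpiSC pairs were 45.5% and 36.4%. Of the WT ESC outside contacts, 29.5% for Hoxa and 27.3% for Hoxb were in the EpiSC list, against 39.6% of all pairs. In the Nanog-/- list were 31.8% and 19.3%, against 41.8%. Nanog-/- outside contacts of Hoxa were in the WT ESC list in 58.3% of cases, against 56.0%. Of the outside contacts of Hoxc baits in EpiSCs, 154 of 182 were in the WT ESC list (84.6%; 78.7 to 89.1).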

How the data were processed

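RNA-seq and PCHi-C of WT ESCs, EpiSCs, and Nanog-/- ESCs were used, and ChIP-seq of EpiSCs was not analysed here. The RNA-seq values are group medians in RPKM, deposited by the authors. Per the labels the reads were processed with Trim Galore and TopHat on GRCm38/mm10. The same table holds log2 fold changes and significance flags of the authors' DESeq2 comparisons, which were not used. The RNA-seq table lists baited genes only. The PCHi-C lists hold, as the authors deposited them, the count of read pairs per fragment pair and the CHiCAGO score, with replicates combined. Reads were mapped with Bowtie 1.1.0 per the labels. All 96056 listed fragments had a HindIII site of GRCm38 at both ends.

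A fragment pair that was entered from either end counted as 1 pair, with the higher score. Distances are between fragment midpoints. EpiSC and Nanog-/- RPKM were divided by the factor that set the median log2 ratio to WT ESCs to 0 over genes of at least 1 RPKM in both, and a difference was called at 2-fold with a pseudocount of 1. Genes that overlap or have near-identical copies could share reads. Outside fragments at most 20 kb apart were joined into regions, and genes were annotated from GENCODE vM21. Named were the Hox genes, 1 of which enters the counts and medians but is not reported here by itself, the outside partner genes in all 3 lists, the 3 outside contacts of highest score per cluster and list, the longest contact per list, and listed cofactors and regulators past 2-fold, up to 3 a list. The flanking genes, markers, and noncoding partners inside the clusters were named beside the contacts they touch. Members and lists were chosen with earlier results of these data known. The alternatives tried were other score, read, fold, distance, and pseudocount limits, other definitions of baits, spans, and shared pairs, and unscaled RPKM. Python 3.11.15, numpy 2.4.6, pandas 2.3.3, and scipy 1.17.1 were used, and the counting was tested on simulated data.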

Additional observations from a re-analysis of the deposited data

How the results depend on the processing

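No paired analysis was possible because the deposited RNA-seq values are group medians and the PCHi-C lists are combined over replicates, and leaving out a replicate could not be run for the same reason. Of 125 values recomputed under an alternative, 77 stayed within their limit (1.5-fold for a count, the 95% interval for a share) and 48 moved. The 77 include counts of contacts between clusters, which were 0 in each list and could not change under the alternatives tried. The total counts could not change with wider spans either. None of 186 recomputed differences of single Hox genes turned a called direction.

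With a score of at least 7, the WT ESC, EpiSC, and Nanog-/- lists held 436, 322, and 364 Hox contacts. Inside contacts were then 202 in WT ESCs and 123 in EpiSCs, and outside contacts were 233, 199, and 163. With a score of at least 10, the totals were 227, 165, and 218, the inside contacts 113, 57, and 127, and the outside contacts 113, 108, and 90. With at least 10 read pairs, EpiSCs had 386 contacts, of which 166 were outside, and Nanog-/- ESCs had 147 outside. With the spans widened by 100 kb on each side, the inside contacts were 431, 284, and 385 and the outside contacts 307, 302, and 195. The split between inside and outside therefore depended on the span.

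Of the shares above 800 kb, a limit of 1 Mb gave 4.61% in EpiSCs. Alternatives chosen after seeing the data gave 0.460% in WT ESCs and 0% in Nanog-/- ESCs with a score of at least 7, and 0%, 0.518%, and 0% in the 3 lists with at least 10 read pairs. With a score of at least 7, 40 Hox bait pairs were listed in EpiSCs, and 22 of the 32 contacts of Hoxa baits with the distant region were kept.

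When the ends of a contact could each differ by 1 neighbouring fragment, 74.7% of WT ESC Hox contacts were in the EpiSC list and 78.8% in the Nanog-/- list, 82.3% and 74.1% of EpiSC contacts were in the WT ESC and Nanog-/- lists, and 91.2% and 79.7% of Nanog-/- contacts were in the WT ESC and EpiSC lists. With a score of at least 7 in the first list, these shares were 71.3%, 82.3%, 79.2%, 73.0%, 93.4%, and 75.8%.

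Of the counts past 2-fold, a pseudocount of 0.1 gave 15 genes higher and 3 lower in EpiSCs and 23 higher in Nanog-/- ESCs, and a pseudocount of 0.5 gave 2 and 7 higher. A 1.5-fold limit gave 3 higher in EpiSCs and 12 in Nanog-/- ESCs, and unscaled RPKM gave 3 higher in EpiSCs. Without scaling, 26 Hox genes were above their WT ESC level in EpiSCs and 30 in Nanog-/- ESCs. The construction of the pseudocount sets these counts, since most Hox levels lie below it. The depth of the libraries is unknown, so a contact in 1 list alone may be one that scored just under the limit in another.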
